A study of Mus musculus with 3 samples.

Results

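The genes described here encode the Wnt signalling pathway of the mouse, from ligands and receptors to antagonists and nuclear effectors. They were taken by gene symbol from the deposited tables (Wnt, Fzd, Sfrp, Dkk, Rspo, Lgr4 to Lgr6, Lrp5, Lrp6, Axin1, Axin2, Nkd1, Nkd2, Tcf7 and its relatives, Lef1, Wif1, Notum and Porcn), which gave 59 of 47725 genes. The choice went by symbol alone, though earlier results of these data were known. RNA was sequenced from cultures grown from 3 mouse embryonic stem cell lines, with 1 library per line: WT (wild type), BM (a Barhl1 mutant) and BEM (a line mutated in an E-box site that the labels call E3). Barhl1 encodes a homeobox transcription factor of inner ear hair cells, and an E-box is the CANNTG site of basic helix-loop-helix factors. The labels call all 3 cultures hair cell-like cells and place them at culture day 9, while otic progenitors were being induced towards that fate on a feeder layer of embryonic chicken utricle stroma that could no longer divide. The medium of all groups held 25 ng/ml EGF and 1 µM retinoic acid. What kind of mutation BM carries, how many clones each line represents and whether chicken reads were set apart are not given in the sources used here.

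Wnt proteins are secreted, lipid-modified ligands that bind Frizzled receptors together with the co-receptors Lrp5 and Lrp6. In the canonical branch this stops the Axin complex from degrading beta-catenin, which then enters the nucleus and works with TCF/LEF factors; other Wnts act through planar cell polarity and calcium signalling. R-spondins bind Lgr4, Lgr5 or Lgr6 and keep Frizzleds on the cell surface. In the inner ear the pathway helps to set the size of the otic placode, and Lgr5 marks supporting cells of the cochlea.

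Levels are given as FPKM, the deposited value scaled to gene length and library total, so that levels of different genes can be set side by side. The library totals behind the FPKM ranged from 20111794 to 23813123 reads. Barhl1 itself stood at 126.5 FPKM in WT against 95.1 in BM and 0.0107 in BEM. With 1 library per line no difference has a replicate check. Intervals given after a fold are exact 95% Clopper-Pearson intervals of the ratio of whole reads recovered from the FPKM, and they cover counting error only. In these bulk cultures fewer cells of a type and less RNA per cell cannot be told apart. Of 10 markers of the labelled cell type, Atoh1, which starts hair cell differentiation, was listed at 270.2, 236.5 and 240.9 FPKM across WT, BM and BEM, values that did not give whole reads. Myo7a stood at 0.704, 9.79 and 9.83 FPKM, Myo6 at 3.65, 2.04 and 2.15, and Espn at 2.08, 0.565 and 0.503. Gfi1 stood at 0.615 FPKM in WT and at 0 in both mutants, and Slc17a8 at 0.108 or less. Pou4f3, Otof, Chrna10 and Tmc1 lay under 0.03 FPKM in every library. Of the otic progenitor markers, Sox9 stood at 17.4, 5.77 and 5.54 FPKM, Pax2 at 1.70, 0.0184 and 0.0311, and Pax8, Dlx5 and Oc90 under 0.05 in every library.

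Of the 59 genes, 36 reached a mean of 1 FPKM over the 3 libraries and are called measured. A further 9 had at least 20 reads in a library, and the remaining 14 did not. In BM 8 of the 36 measured genes were at least 2-fold higher than in WT on the log2(FPKM + 0.5) scale and 13 at least 2-fold lower, against 10.5% and 15.3% of all 12875 measured genes. In BEM the counts were also 8 and 13, against 10.7% and 15.3%. Among the measured genes 13 lay below 1 FPKM in at least 1 library, so that some of them were measured only through the library in which they were high. Of the 23 at 1 FPKM or more in every library, 4 were 2-fold higher and 5 lower in BM than in WT. The shares among all 11092 genes of that kind were 7.33% and 10.9%. The same counts of 4 and 5 held for BEM, against 7.35% and 11.0%. The median log2 difference of the 36 measured genes was -0.29 in BM and -0.40 in BEM, against -0.08 and -0.07 for all measured genes. Over the 23 at 1 FPKM or more in every library the medians were -0.26 in BM and -0.17 in BEM, against -0.06 and -0.05 for all such genes, so that the order of the mutants turned. Without the filter on low values 8 of the 59 were higher and 15 lower in BM, against 3.61% and 6.36% of all genes, and 8 and 16 in BEM, against 3.63% and 6.24%. The counting interval excluded equality with WT for 35 of the 36 in BM and 34 in BEM, against 81.0% and 81.3% of all measured genes. With that interval also required, the counts past 2-fold were still 8 and 13 in each mutant. Of all measured genes 10.3% were higher and 14.8% lower by both criteria in BM, and 10.4% and 14.8% in BEM, little below the shares by 2-fold alone. The comparisons of BM and BEM with WT use the same WT library, so their values are given side by side.

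**Figure D1:**
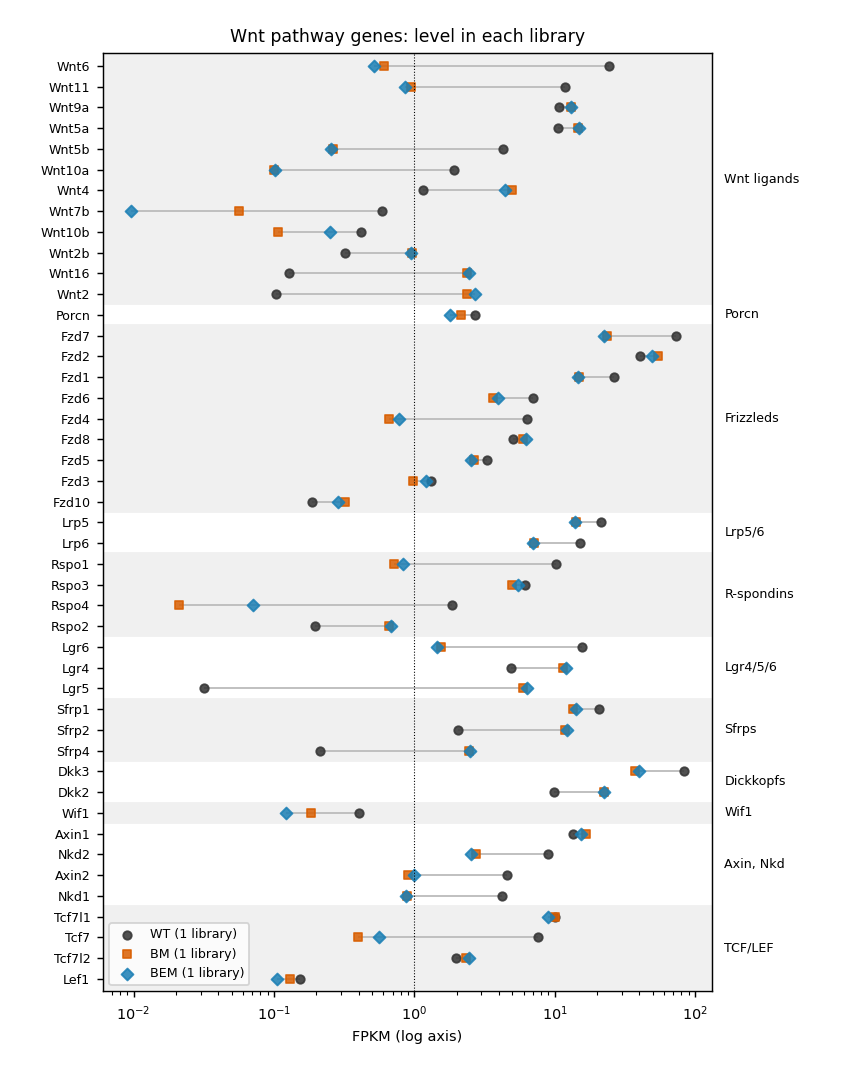
Level of 45 Wnt pathway genes in the WT, BM and BEM libraries (FPKM, log axis), grouped by role; each point is 1 library and the dotted line marks 1 FPKM. Wnt6, Wnt11, Rspo1, Lgr6 and Tcf7 lie far to the right in WT, while Lgr5, Wnt2 and Wnt16 lie far to the right in BM and BEM.

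Among the ligands, Wnt6, Wnt11 and Wnt5b were lower and Wnt2, Wnt16 and Wnt4 higher in the mutant cultures. Of 19 Wnt genes 8 were measured, with 3 higher, 3 lower and 2 within 2-fold of WT in each mutant. Of the 8, 5 lay below 1 FPKM in a library and were measured only through the libraries in which they were high. Among the 3 at 1 FPKM or more in every library, 1 was higher and 0 lower in each mutant. Counts by family are to be read against the shares of all measured genes. These were 10.5% higher and 15.3% lower in BM, and 10.7% and 15.3% in BEM. Wnt6, a ligand of ectoderm and early epithelia, was the most abundant Wnt in WT at 24.3 FPKM and stood at 0.612 in BM and 0.517 in BEM. This is 39.6-fold lower in BM (27.1 to 60.4) and 46.9-fold lower in BEM (32.1 to 71.5). Wnt11, which acts mainly through beta-catenin-independent signalling, stood at 11.8 FPKM in WT against 0.949 in BM and 0.863 in BEM. Its level was 12.4-fold lower in BM (9.88 to 15.8) and 13.7-fold lower in BEM (11.0 to 17.3). Wnt5b, a relative of Wnt5a, was at 4.27 FPKM in WT against 0.262 in BM and 0.253 in BEM, 16.3-fold (9.51 to 30.2) and 16.8-fold lower (10.2 to 29.9). In each of these genes WT alone was high and the mutants lay close together.

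On the other side, Wnt2, a ligand of lung and placental development, had 5 reads in WT, 107 in BM and 146 in BEM. Its level of 0.103 FPKM in WT compared with 2.36 in BM and 2.72 in BEM, 22.9-fold (9.53 to 72.1) and 26.4-fold higher (11.1 to 82.6). Wnt16, known for its role in bone, had 12 reads in WT, 207 in BM and 255 in BEM, 18.5-fold (10.4 to 36.4) and 19.2-fold higher (10.8 to 37.7). Wnt4, needed for kidney and female reproductive tract development, was present in each library, at 1.15 FPKM in WT against 4.98 in BM and 4.44 in BEM. That is 4.33-fold (3.48 to 5.42) and 3.86-fold higher (3.11 to 4.82).

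The upstream sequences of 5 of these genes are printed to show the promoters of ligands that were lower (Wnt6, Wnt11) and higher (Wnt2, Wnt16) in the mutants and of Axin2, the pathway's feedback target described further on. Each is the 250 bases before the RefSeq start in build GRCm38.p6, read 5′ to 3′ on the gene's strand. Capitals mark the TCF/LEF core CTTTGAT, searched on both strands (ATCAAAG).
Wnt6 (chr1:74771642-74771891, plus strand): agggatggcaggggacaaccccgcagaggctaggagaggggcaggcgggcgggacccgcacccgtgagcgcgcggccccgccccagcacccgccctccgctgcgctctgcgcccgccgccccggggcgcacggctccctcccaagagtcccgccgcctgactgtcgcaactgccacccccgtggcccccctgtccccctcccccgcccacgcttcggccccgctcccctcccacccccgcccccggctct
Wnt11 (chr7:98834862-98835111, plus strand): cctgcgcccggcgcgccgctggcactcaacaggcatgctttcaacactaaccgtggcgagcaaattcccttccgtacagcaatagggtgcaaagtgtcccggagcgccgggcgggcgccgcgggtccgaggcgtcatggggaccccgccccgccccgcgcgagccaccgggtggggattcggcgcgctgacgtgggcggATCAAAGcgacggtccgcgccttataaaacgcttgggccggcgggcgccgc
Wnt2 (chr6:18030446-18030695, minus strand): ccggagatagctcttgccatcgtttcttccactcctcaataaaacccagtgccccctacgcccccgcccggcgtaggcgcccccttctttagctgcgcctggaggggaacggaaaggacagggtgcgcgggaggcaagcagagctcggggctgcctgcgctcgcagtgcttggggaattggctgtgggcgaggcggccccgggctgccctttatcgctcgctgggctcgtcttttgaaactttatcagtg
Wnt16 (chr6:22287977-22288226, plus strand): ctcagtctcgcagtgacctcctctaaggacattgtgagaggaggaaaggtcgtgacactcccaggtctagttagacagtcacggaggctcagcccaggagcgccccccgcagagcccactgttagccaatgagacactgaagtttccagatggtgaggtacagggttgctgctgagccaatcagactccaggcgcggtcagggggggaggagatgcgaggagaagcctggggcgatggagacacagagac
Axin2 (chr11:108920099-108920348, plus strand): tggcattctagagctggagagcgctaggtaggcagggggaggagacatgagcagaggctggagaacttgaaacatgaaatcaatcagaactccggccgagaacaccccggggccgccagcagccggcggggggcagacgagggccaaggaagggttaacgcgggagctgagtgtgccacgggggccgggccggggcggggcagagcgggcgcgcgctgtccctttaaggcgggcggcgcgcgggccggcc
Of the 59 genes 38 matched a RefSeq window, and 1 of the 38, Wnt11, held the core, with its first base 51 bases upstream of the start. The core was found in 3.21% of all 32851 windows of the same length. The E-box CANNTG, searched on both strands, was in 22 of the 38 windows and in 66.2% of all windows. Wnt6 and Wnt16 held 1 E-box each, and Wnt11, Wnt2 and Axin2 held 0, so that no E-box overlapped the core of Wnt11. A match is only a description of these letters.

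Wnt5a and Wnt9a stayed within 2-fold of WT. Wnt5a, the main ligand of planar cell polarity signalling, stood at 10.5 FPKM in WT against 14.6 in BM and 15.0 in BEM, 1.39-fold (1.31 to 1.48) and 1.43-fold higher (1.35 to 1.52). Wnt9a, active in joints, stood at 10.8, 13.02 and 13.1 FPKM. With Wnt6 and Wnt11 low, these were the leading ligands of the mutant cultures. Wnt6 made up 36.5% of the summed Wnt FPKM in WT and 1.52% in BM and 1.27% in BEM. Wnt5a and Wnt9a made up 15.8% and 16.2% in WT, 36.1% and 32.2% in BM, and 36.8% and 32.2% in BEM. The summed level of all 19 Wnts was 66.5 FPKM in WT against 40.4 in BM and 40.7 in BEM.

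Some Wnts below a mean of 1 FPKM also stood apart between the libraries. Wnt10a, which acts in teeth and hair follicles, had 102 reads in WT, 5 in BM and 6 in BEM, 19.0-fold (7.90 to 59.9) and 18.8-fold lower (8.34 to 52.4). Wnt7b had 56 reads in WT, 5 in BM and 1 in BEM, so that its level was 10.4-fold lower in BM (4.22 to 33.4) and 61.9-fold lower in BEM (10.7 to 2487). Wnt2b went the other way, with 29, 81 and 95 reads in WT, BM and BEM, 2.99-fold higher in BM (1.94 to 4.75) and 2.97-fold in BEM (1.94 to 4.66). Wnt10b had 21 reads in WT, 5 in BM and 14 in BEM, which rest on a gene length other than the annotated one. The counting interval of Wnt10b excluded equality with WT in BM, where it was 3.92-fold lower (1.44 to 13.3), and included it in BEM.

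The classical canonical ligands were near 0. Wnt3a had 0 reads in every library, which allows at most 0.0504 FPKM in WT against 0.054 in BM and 0.0456 in BEM at 3 reads. Wnt1 had 2 reads, both from WT, and Wnt3 had 2, 1 and 2 reads in WT, BM and BEM. Wnt8a, Wnt8b and Wnt9b had at most 4 reads in a library. Wnt7a had 10 reads in WT, 2 in BM and 0 in BEM, at least 3.68-fold lower in BEM when 3 reads are taken as the floor there. Its interval in BM included equality (0.994 to 43.8), and for the other ligands of this paragraph no difference was detectable at this depth.

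The genome places several Wnts side by side, and the neighbours did not share 1 pattern. Wnt6 and Wnt10a lie 6193 bases apart on the plus strand of chromosome 1 (GRCm38, Wnt6 from 74771892 to 74785322 and Wnt10a from 74791516 to 74804179), with no protein-coding gene between them, and both had their highest level in WT. Wnt9a, on chromosome 11 from 59306928 to 59333552, lies 16175 bases from Wnt3a, which starts at 59248033 and ends at 59290752. Wnt9a was at over 10 FPKM in each library while Wnt3a had 0 reads. The pair of Wnt10b and Wnt1 on chromosome 15, 11706 bases apart, and that of Wnt9b and Wnt3 on chromosome 11, 24328 bases apart, stayed under 0.5 FPKM in every library.

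Porcn, the enzyme that attaches the lipid to Wnts, differed little. It stood at 2.71 FPKM in WT against 2.14 in BM and 1.81 in BEM, 1.27-fold (1.00 to 1.60) and 1.499-fold lower (1.19 to 1.90).

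**Figure D2:**
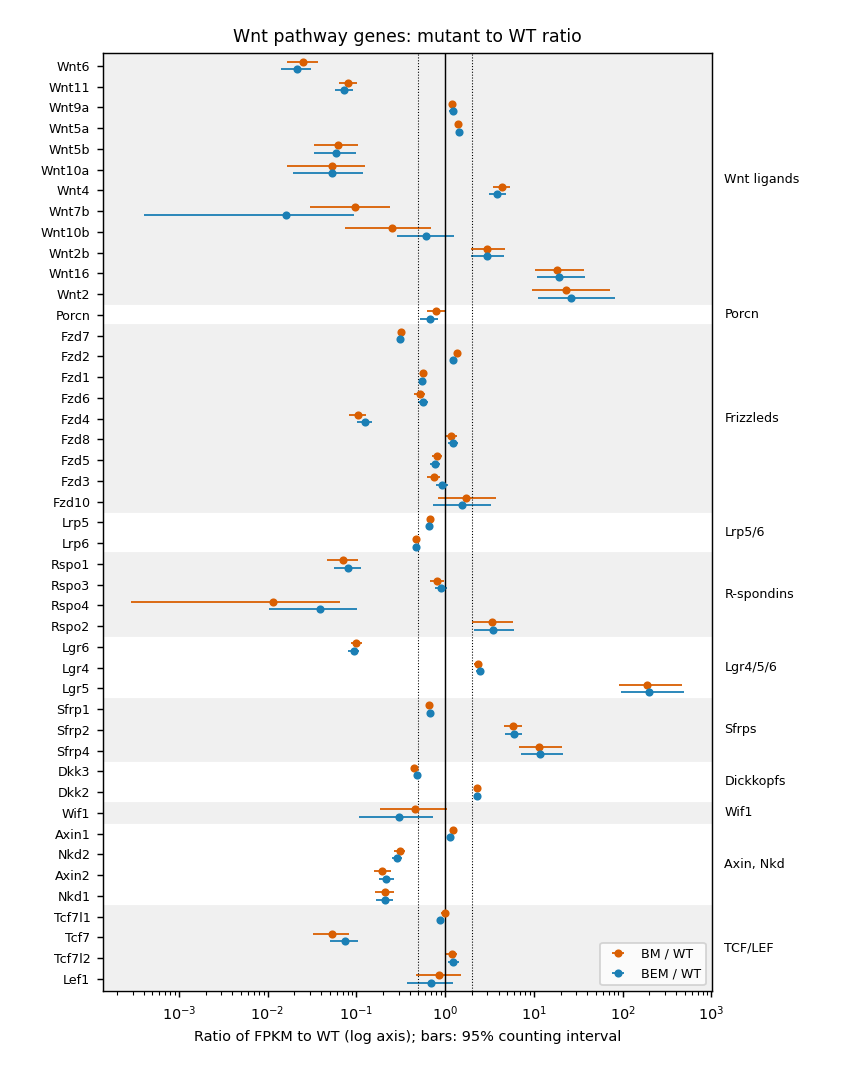
Ratio of FPKM in BM (orange) and BEM (blue) to WT for the same 45 genes (log axis); bars are 95% counting intervals of recovered reads and dotted lines mark a 2-fold difference. The points of BM and BEM lie close together for most genes, from Wnt6 far to the left to Lgr5 at 187-fold and 200.2-fold to the right.

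Frizzled receptors were lower in part. Of 10 Frizzled genes 8 were measured, and Fzd4 and Fzd7 were at least 2-fold lower in each mutant while none was 2-fold higher. Among the 6 at 1 FPKM or more in every library, 1 was lower and 0 higher in each mutant. Of all measured genes 15.3% were lower in each mutant, and 10.5% were higher in BM and 10.7% in BEM. Fzd4, which also serves as the receptor of Norrin in retinal vessels, stood at 6.32 FPKM in WT against 0.659 in BM and 0.781 in BEM. Its level was 9.60-fold lower in BM (7.72 to 12.1) and 8.10-fold lower in BEM (6.71 to 9.84). Fzd7 was the most abundant Frizzled in WT at 73.1 FPKM and stood at 23.4 in BM and 22.5 in BEM, 3.12-fold (2.97 to 3.27) and 3.25-fold lower (3.10 to 3.40). WT was thus the high library for both receptors.

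The other measured Frizzleds were within 2-fold. Fzd2 led in the mutants at 54.3 FPKM in BM and 49.7 in BEM, against 40.2 in WT, 1.35-fold (1.29 to 1.41) and 1.23-fold higher (1.18 to 1.29). Fzd1 was 1.78-fold lower in BM (1.66 to 1.91), at 26.4, 14.9 and 14.7 FPKM across WT, BM and BEM, and Fzd6 was 1.92-fold lower in BM (1.67 to 2.22), at 6.97, 3.62 and 3.91 FPKM. Fzd5, Fzd8 and Fzd3 stood between 0.976 and 6.23 FPKM in all libraries. In WT the order of the leading Frizzleds was Fzd7, Fzd2 and Fzd1, and in both mutants it was Fzd2, Fzd7 and Fzd1. The summed level of the 10 receptors was 163 FPKM in WT against 106.8 in BM and 101.9 in BEM. Fzd10, at 13, 21 and 22 reads in WT, BM and BEM, had intervals that included equality with WT, and Fzd9 had at most 7 reads.

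Of the co-receptors, which pair with Frizzleds, Lrp6 lay at the edge of the 2-fold threshold. Lrp6 stood at 15.1 FPKM in WT against 7.18 in BM and 7.03 in BEM, 2.10-fold (1.99 to 2.22) and 2.15-fold lower (2.04 to 2.26). Under upper quartile, median-of-ratios and TMM scaling Lrp6 no longer counted as 2-fold lower in either mutant. Lrp5 stood at 21.2, 14.3 and 13.9 FPKM, 1.49-fold (1.42 to 1.56) and 1.53-fold lower (1.46 to 1.60).

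The leading R-spondin was Rspo1 in WT and Rspo3 in the mutants. Rspo1, which amplifies Wnt signalling in the ovary and intestine, stood at 10.2 FPKM in WT against 0.718 in BM and 0.823 in BEM, 14.2-fold (9.70 to 21.7) and 12.4-fold lower (8.90 to 17.8). Rspo3, a regulator of vessels and stem cell niches, stayed close at 6.10, 4.96 and 5.51 FPKM and led the family in the mutants. Rspo3 made up 33.2% of the summed R-spondin level in WT, 78.0% in BM and 77.7% in BEM. Rspo4, required for nail growth, had 94 reads in WT, 1 in BM and 4 in BEM, 87.7-fold lower in BM (15.4 to 3500) and 26.0-fold lower in BEM (9.81 to 97.3). Rspo2, a regulator of limb and lung growth, had 21 reads in WT, 66 in BM and 81 in BEM, 3.37-fold (2.03 to 5.80) and 3.49-fold higher (2.14 to 5.94). The transcript Rspo4os lies inside the Rspo4 gene on the opposite strand and had 8, 2 and 2 reads in WT, BM and BEM. The summed R-spondin level was 18.4 FPKM in WT against 6.36 in BM and 7.08 in BEM.

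All 3 R-spondin receptors were past 2-fold, with Lgr6 lower and Lgr4 and Lgr5 higher. Lgr6, a marker of stem cells of skin appendages and of some cochlear supporting cells, stood at 15.6 FPKM in WT against 1.56 in BM and 1.45 in BEM, 10.01-fold (8.70 to 11.6) and 10.7-fold lower (9.40 to 12.3). Lgr5 had 7 reads in WT against 1220 in BM and 1548 in BEM, a level of 0.0316 FPKM against 5.91 and 6.33. Its level was 187-fold higher in BM (90.4 to 466) and 200.2-fold higher in BEM (96.9 to 499), which rests on the 7 reads of WT. Lgr4, the broadly expressed receptor of the family, stood at 4.90, 11.5 and 12.1 FPKM, 2.35-fold (2.14 to 2.59) and 2.47-fold higher (2.25 to 2.71). The receptors nevertheless summed to near levels, 20.5 FPKM in WT against 19.0 in BM and 19.9 in BEM. Lgr6 gave 76.0% of that sum in WT, whereas Lgr4 gave 60.7% and 60.8% and Lgr5 gave 31.1% and 31.9% in BM and BEM.

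**Figure D3:**
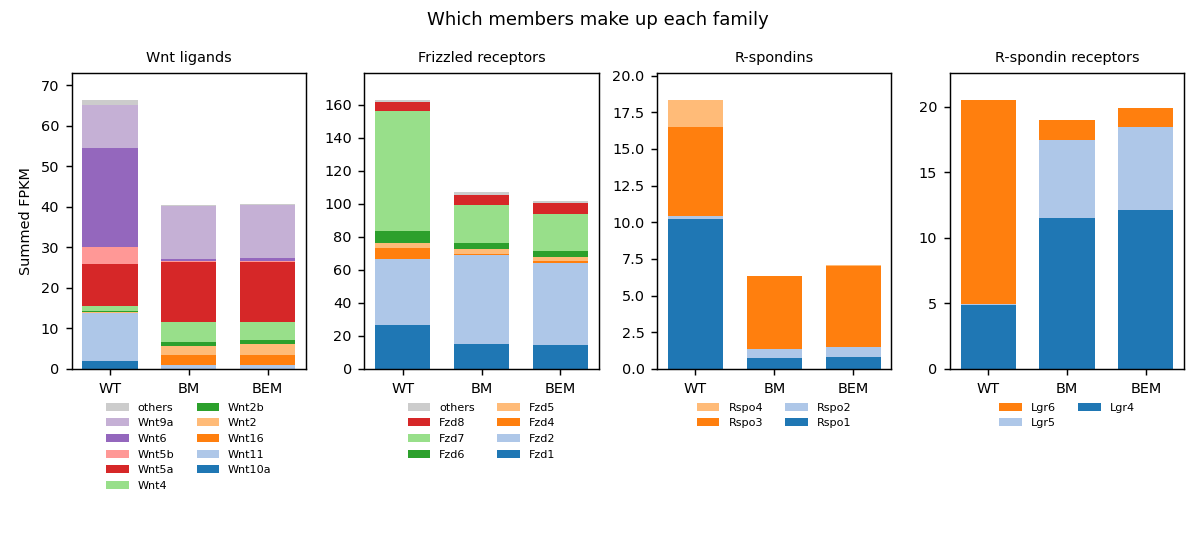
Summed FPKM of the Wnt ligands, Frizzled receptors, R-spondins and R-spondin receptors in each library (linear axes from 0), stacked by gene; members that never reach 2% of their family are pooled as others. The receptor bars stay near 20 FPKM while Lgr6 gives way to Lgr4 and Lgr5, and the Wnt6 and Wnt11 blocks of WT are nearly gone in BM and BEM.

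The secreted antagonists went in both directions. Secreted Frizzled-related proteins carry a Frizzled-like domain that binds Wnts. Sfrp2 was higher in the mutants, at 2.05 FPKM in WT against 11.8 in BM and 12.2 in BEM, 5.79-fold (4.64 to 7.28) and 5.94-fold higher (4.78 to 7.45). Sfrp4 had 16 reads in WT, 172 in BM and 210 in BEM, 11.5-fold (6.90 to 20.6) and 11.9-fold higher (7.15 to 21.2). Sfrp1 was the leading member in each library, at 20.6, 13.5 and 14.1 FPKM, 1.53-fold (1.43 to 1.65) and 1.46-fold lower (1.37 to 1.56). It made up 90.0% of the summed level of the family in WT and 48.5% in BM and 49.0% in BEM. Sfrp5 had at most 2 reads in a library.

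Of the Dickkopf genes, Dkk2 and Dkk3 were measured and lay on opposite sides. Dkk2, which binds Lrp5 and Lrp6, stood at 9.89 FPKM in WT against 22.5 in BM and 22.5 in BEM, 2.28-fold (2.09 to 2.48) and 2.27-fold higher (2.09 to 2.47). Dkk3, a divergent relative, was the most abundant gene of the whole set in WT at 84.0 FPKM and stood at 37.6 in BM and 40.0 in BEM. Its level was 2.23-fold lower in BM (2.13 to 2.34) and 2.10-fold lower in BEM (2.01 to 2.19), and under the same 3 scalings it was no longer 2-fold lower in BEM. Dkk1, the classical Lrp6 inhibitor, had 5 reads in WT, 1 in BM and 6 in BEM. Dkk4 was listed at 0.0712 FPKM in WT and at 0 in both mutants, and Dkkl1 had 11, 5 and 3 reads, 4.05-fold lower in BEM (1.07 to 22.6). Wif1, which binds Wnts directly, had 21, 9 and 7 reads in WT, BM and BEM, 3.31-fold lower in BEM (1.36 to 9.23) and 2.18-fold lower in BM with an interval that included equality (0.956 to 5.40). Notum, which removes the lipid from Wnts, had 9, 8 and 8 reads.

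Inside the cell, the feedback genes Axin2, Nkd1 and Nkd2 were lower in the mutants while Axin1 was not. Axin2, a scaffold of the degradation complex that is itself induced by beta-catenin, stood at 4.56 FPKM in WT against 0.894 in BM and 0.991 in BEM, 5.10-fold (4.11 to 6.38) and 4.60-fold lower (3.79 to 5.61). Nkd1, which binds Dishevelled and restrains the pathway, stood at 4.203, 0.881 and 0.876 FPKM, 4.77-fold (3.74 to 6.15) and 4.80-fold lower (3.82 to 6.08). Nkd2, its relative, stood at 8.89, 2.74 and 2.55 FPKM, 3.24-fold (2.82 to 3.73) and 3.49-fold lower (3.05 to 3.996). Axin1, the constitutive scaffold, stood at 13.5, 16.8 and 15.4 FPKM, 1.24-fold (1.14 to 1.35) and 1.14-fold higher (1.05 to 1.23).

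Among the TCF/LEF factors Tcf7 stood apart. Tcf7, an activating factor and a target of the pathway, stood at 7.55 FPKM in WT against 0.398 in BM and 0.560 in BEM, 19.0-fold (12.3 to 31.0) and 13.5-fold lower (9.54 to 19.6). Tcf7l1, known mainly as a repressor in stem cells, stood at 10.04, 10.07 and 8.88 FPKM. Its ratio was 1.00 in BM (0.91 to 1.11), and it was 1.13-fold lower in BEM (1.03 to 1.24). Tcf7l2 stood at 1.96, 2.33 and 2.43 FPKM, 1.19-fold (1.03 to 1.37) and 1.24-fold higher (1.08 to 1.42). Lef1 had 29, 23 and 22 reads in WT, BM and BEM. Tcf7l1 and Tcf7 gave 50.9% and 38.3% of the summed level of the family in WT, while in BM Tcf7l1 gave 77.9% and Tcf7 gave 3.08%.

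Between the mutants these genes, like measured genes as a whole, differed little. In BEM 0 of the 36 measured genes were 2-fold higher and 0 were 2-fold lower than in BM, against 0.458% and 0.326% of all measured genes. At shares this low, counts of 0 do not set these genes apart. With the counting interval also required, those shares were 0.0466% and 0.0621%. Among the 23 genes at 1 FPKM or more everywhere the counts were again 0, against 0.0902% and 0.0721%, and so they were for all 59 without a filter, against 0.415% and 0.358%. The largest fold was that of Tcf7, 1.41-fold higher in BEM with an interval that included equality (0.797 to 2.54). The counting interval excluded equality for 5 of the 36, or 13.9%, near the 12.2% of all measured genes. These were Fzd3, 1.24-fold higher in BEM (1.05 to 1.46), Dkk3, 1.06-fold higher (1.01 to 1.12), Tcf7l1, 1.13-fold lower (1.03 to 1.25), Fzd2, 1.09-fold lower (1.05 to 1.14), and Axin1, 1.09-fold lower (1.01 to 1.18), named after their values were seen.

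The authors' deposited table marked 4 of the 59 genes as significantly higher and 9 as lower in BM than in WT, against 1.24% and 2.02% of all genes. For BEM the authors' deposited table marked 4 higher and 10 lower, against 1.33% and 2.11%; the added gene was Wnt7b, with an FDR of 0.00336 in BEM and 0.0781 in BM. In BEM against BM it marked 0 of these genes, and 0.0% and 0.0021% of all genes as higher and lower. The sources used here do not say how that mark was reached without replicates.

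Other genes of the pathway were followed in 6 lists that hold none of the 59. Their counts are to be read against the 10.5% higher and 15.3% lower of all measured genes in BM, and the 10.7% and 15.3% in BEM. Some genes of the lists lay below 1 FPKM in WT or in the mutants and were measured only through the libraries in which they were high. Of 18 measured genes of Wnt secretion and co-reception, 4 were 2-fold higher and 3 lower in each mutant, the latter near the share of all measured genes. Wls, which carries Wnts to the cell surface, stood at 16.3 FPKM in WT against 49.0 in BM and 50.3 in BEM, 3.001-fold higher in BM (2.88 to 3.13). The glypicans split, with Gpc3 at 131.3, 7.28 and 7.74 FPKM across WT, BM and BEM and Gpc4 at 20.5, 79.7 and 78.9. Cthrc1, a secreted cofactor of planar cell polarity signalling, was 3.67-fold higher in BM (3.26 to 4.15), and Ror1, a receptor of Wnt5a, was 7.32-fold lower (6.03 to 8.96).

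Of 6 other measured inhibitors, 1 was higher and 4 lower in each mutant, against 15.3% lower of all measured genes, with a median log2 difference of -2.15 in BM and -2.27 in BEM. Igfbp4, a binding protein of insulin-like growth factors that also inhibits Wnt signalling, stood at 329.8, 21.1 and 20.1 FPKM across WT, BM and BEM. Shisa2 and Shisa3, of a family that holds Frizzleds back in the secretory pathway in Xenopus, stood at 6.64 and 9.79 FPKM in WT and at most at 0.269 in the mutants. Trabd2b, a protease that cleaves Wnts, was 2.66-fold lower in BM (2.19 to 3.24). Apcdd1, an inhibitor at the cell membrane, was the higher gene, at 1.79, 9.04 and 9.02 FPKM.

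Of 22 measured genes of the destruction complex and cytoplasmic transducers, 0 were higher and 5 lower in each mutant, against 15.3% lower of all measured genes. Ctnnb1, which encodes beta-catenin, stood at 366.6 FPKM in WT against 148.9 in BM and 152.9 in BEM, 2.46-fold (2.42 to 2.51) and 2.40-fold lower (2.36 to 2.44). Dact2, a Dishevelled-binding protein, stood at 18.9, 0.230 and 0.0598 FPKM. Csnk1e, a kinase of Dishevelled and Lrp6, was 3.05-fold lower in BM (2.86 to 3.26), Frat2, a binding partner of Gsk3, 5.21-fold (3.17 to 8.99) and Caprin2 5.76-fold (4.71 to 7.10). Nuclear cofactors stayed within 2-fold, with 0 of 14 measured genes past it in each mutant. The 5 with the largest difference were Tle3, Bcl9l, Tle4, Bcl9 and Pygo1, between 1.66-fold and 1.94-fold apart from WT.

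The planar cell polarity list had 1 of 21 measured genes higher and 8 lower in BM, and 1 higher and 7 lower in BEM. Of all measured genes 15.3% were lower in each. The list also held genes of calcium signalling (Nfatc1, Nfatc4, Camk2d and Camk2g), and its 1 higher gene was Nfatc1. Celsr1, a cadherin of the core polarity complex, stood at 4.24 FPKM in WT against 0.0675 in BM and 0.0988 in BEM, and its partner Vangl2 at 6.38, 1.28 and 1.53. Daam2 was 7.80-fold (6.88 to 8.88), Celsr2 9.82-fold (7.61 to 12.9) and the small GTPase gene Rhou 4.77-fold lower in BM (4.31 to 5.29). Of 17 measured targets of beta-catenin outside the 59, 5 were higher and 2 lower in each mutant, the latter below the 15.3% of all measured genes, with a median log2 difference of 0.14 in BM and 0.22 in BEM. Wisp2 was higher, at 0.145, 45.7 and 44.7 FPKM across WT, BM and BEM, as were Fst at 3.43, 21.6 and 20.2 and Cd44 at 11.1, 45.8 and 46.5. Tbx3 was 5.06-fold (4.47 to 5.73) and Ascl2 16.3-fold lower in BM (7.66 to 41.3).

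**Figure D4:**
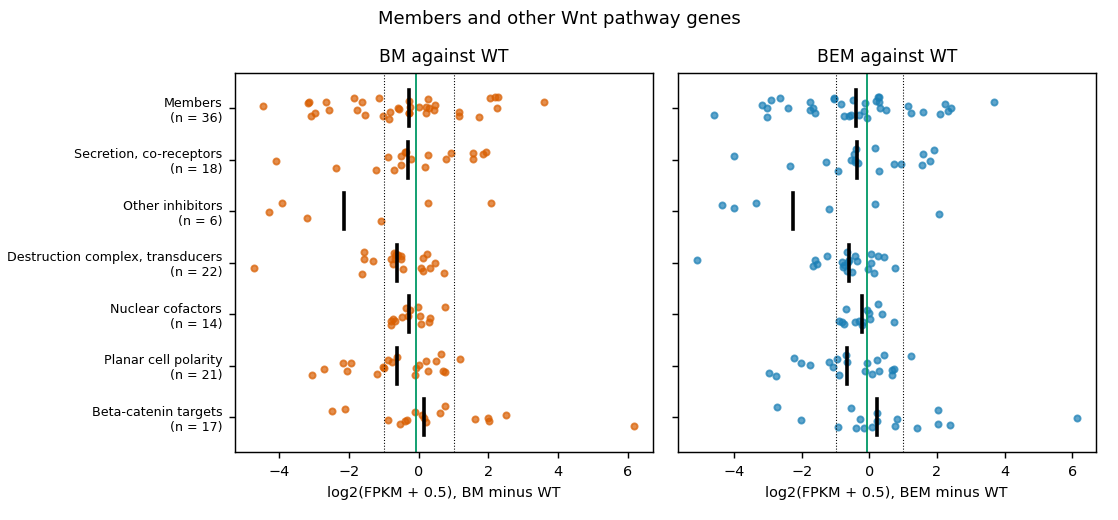
Difference from WT on the log2(FPKM + 0.5) scale for measured genes, in BM (left) and BEM (right); each point is a gene, black bars are medians, dotted lines mark a 2-fold difference and the green line the median of all measured genes. The 14 nuclear cofactors lie within the dotted lines, and the 6 other inhibitors have their median near -2.

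Markers of other cell types differed between WT and the mutants as well. Of all measured genes 10.5% were 2-fold higher and 15.3% lower in BM, and 10.7% and 15.3% in BEM. Some measured markers lay below 1 FPKM in WT or in the mutants and were measured only through the libraries in which they were high. Mesenchyme and fibroblast markers were 2-fold higher for 6 of 12 in each mutant, and their summed level was 2513 FPKM in WT against 5292 in BM and 5185 in BEM. Col1a1 was the largest part of that sum, at 1009, 2645 and 2554 FPKM. Pdgfra, Dcn, Col3a1 and Twist2 were lower in both mutants, by less than 2-fold. Smooth muscle markers were higher for 5 of 6, with a summed level of 81.8, 3734 and 3776 FPKM, and macrophage markers for 8 of 8, with 12.5, 1802 and 1850 FPKM and C1qa at 0 in WT. Epithelial markers were lower for 3 of 3 measured of 6, with a summed level of 37.6, 5.39 and 5.16 FPKM and Cldn6 at 0 in both mutants. Endoderm and liver markers were lower for 2 of 2 measured of 6, with a summed level of 16.9, 0.158 and 0.201 FPKM, and Ttr was at 0 in both mutants. Otic progenitor markers were lower for 3 of 4 measured of 8, at 28.6, 9.82 and 9.69 FPKM, with Oc90 at 0 in WT and BM. Supporting cell markers were split, with 1 of 4 measured of 10 higher and 1 lower and a summed level of 39.6, 27.4 and 28.0 FPKM. Gjb2 was the higher gene, at 0.289, 4.69 and 4.70 FPKM, and Sox2 the lower, at 4.22, 0.242 and 0.163. Of those not measured, Prox1, Fgfr3 and Otoa were lower and Sox10 was higher in both mutants. Hair cell markers were also split, with 1 of 4 measured of 10 higher and 1 lower. Their summed level was 277.4, 248.98 and 253.4 FPKM with Atoh1. Without Atoh1 the sum was 7.17, 12.5 and 12.6 FPKM, so that the order of WT and the mutants turned. Most of the sum without Atoh1 in the mutants was Myo7a, at 9.79 FPKM in BM and 9.83 in BEM against 0.704 in WT. Espn, Myo6 and Gfi1 were lower in both mutants. Of 2 measured endothelial markers of 6, 1 was lower, at 5.35, 2.97 and 3.04 FPKM. Summed levels are over every gene of a list. Their part in the differences of the Wnt pathway genes was not tested.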

How the data were processed

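RNA was measured in 3 libraries. The deposited tables gave FPKM per gene, with the authors' log2 ratio and their p-value and FDR for each pair of libraries, per the file headers. Each of the 3 tables held 47725 genes, and 4 further lines of each were not analysed here. The submitters' processing notes name TopHat2, HTSeq, edgeR and, as build, GRCm38, without versions; their settings and the use of strand are not given in the sources used here. GENCODE M21 on GRCm38 gave positions and exonic lengths for 47220 of the genes.

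Differences were taken between log2(FPKM + 0.5) values, among genes whose mean reached 1 FPKM, and called at 2-fold; the pseudocount understates the change of low genes. A fold printed for a gene is the plain ratio of its deposited FPKM values. Whole reads, to within 0.0001, were recovered at the annotated length for 42 of the 59 genes. For 15 others (among them Dkk3, Nkd1, Nkd2, Sfrp4, Wnt5a, Wnt7b and Wnt10b), whose reads are less certain, the nearest working length within 10% of it was taken, or else the fewest reads within 2 or 4 times it; Dkk4 gave none and Wnt3a was at 0. Folds against 0 reads use a floor of 3 reads in that library. Reads are not independent molecules, so intervals cover counting error only. The 12 annotated genes that share exonic bases with a member from the opposite strand stood at or below 0.497 FPKM, with Gm48159 not in the tables, and such reads cannot be told apart without strand.

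The members, gene lists and alternatives were chosen with earlier results of these data known. Members of at least 1 FPKM or 20 reads are given with values, and up to 5 genes per pathway list by the largest difference from WT. Recovery was tested on simulated data. Python 3.11.15, pandas 2.3.3 and scipy 1.17.1 were used.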

Additional observations from a re-analysis of the deposited data

How the results depend on the processing

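No paired analysis was possible because each line had 1 library, and for the same reason no library could be left out. Of the 36 measured genes 8 were 2-fold higher and 13 lower than in WT, in BM and in BEM alike. With a mean of at least 10 FPKM required, 10 genes were left, of which 1 was higher and 2 lower in each mutant, against 525 and 561 of all 5238 such genes in BM and 529 and 557 in BEM. A pseudocount of 5 left 2 higher in each mutant, against 4.11% of all measured genes in BM and 4.18% in BEM, and 8 lower in BM against 6.38% and 6 in BEM against 6.46%. A 4-fold threshold left 5 higher and 7 lower in each, against 3.91% and 5.76% in BM and 3.94% and 5.79% in BEM. The authors' significance mark left 4 higher and 7 lower in each, against 3.39% and 3.76% in BM and 3.41% and 3.89% in BEM. These settings call fewer genes by construction. Upper quartile, median-of-ratios and TMM scaling moved log2 differences from WT up by at most 0.097 and gave 8 higher, and 12 lower in BM and 11 in BEM. Without a filter 8 of the 59 were higher and 15 lower in BM, and 8 and 16 in BEM. The authors' log2 ratio, a pseudocount of 0.05 and the counting interval kept all counts, and BEM against BM stayed at 0 in each of these settings. Of 648 recomputed log2 ratios of measured genes 0 of those called changed sign, and 185 lay outside the counting interval of the plain ratio. That count does not measure movement alone, since main values hold the pseudocount and can lie outside the interval already. The main log2 difference of Tcf7 in BM, -3.16, did so, with an interval of 12.3-fold to 31.0-fold lower. Of the 14 genes under 20 reads in each library, Wnt7a and Dkkl1 had intervals that excluded equality with WT, in BEM.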
